A study of Mus musculus with 7 samples.

Results

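Ccr7-positive CD4 cells were selected from the 2 libraries of mixed CD44high spleen T cells taken 7 days after infection with LCMV Arm. A cell counted as CD4-like when it held at least 1 Cd4 UMI (a unique molecular identifier, here 1 captured mRNA molecule) and no Cd8a or Cd8b1 UMI. It belonged to the Ccr7+ cells described here when it also held at least 1 Ccr7 UMI and no UMI of Cxcr5, Cxcr6 or Foxp3. Only cells with 500 or more detected genes and at most 10% mitochondrial UMIs were used. The rule gave 238 of 1492 CD4-like cells in total replicate 1 and 93 of 563 in total replicate 2, which is 331 of 2055 CD4-like cells, of 9215 cells in both total libraries and of 16427 cells in all 7 libraries. The other 1724 CD4-like cells of the same libraries served as the comparison.

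CCR7 is the chemokine receptor that takes T cells along gradients of CCL19 and CCL21 into the T cell zones of lymph node and spleen. Naive T cells carry it together with S1PR1, a receptor for egress from lymphoid organs, and so do central memory T cells. In an acute virus infection CD4 T cells divide and take on Th1 effector fates, where CXCR6 is found, or follicular helper fates, where CXCR5 guides cells to the B cell follicle. CD4 T cells that keep CCR7 and the transcription factor TCF1, the product of Tcf7, have been described as precursors of memory. FOXP3 marks regulatory T cells.

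Both total libraries came from wild type C57bl/6 mice, in which CD4+ and CD8+ T cells had been sorted apart and then joined in equal parts before capture. Further day 7 libraries hold CD4 T cells that bind a tetramer of the LCMV peptide GP66 on I-Ab, 1 library for each genotype. The first is from wild type mice and the second from Ox40-Cre+ Thpok wt/wt RosaYFP+ mice, sorted for YFP and called Thpok-sufficient here. In these mice Cre follows the Ox40 (Tnfrsf4) gene, which activated T cells express, so YFP is restricted to cells that have expressed it. The other 3 libraries hold the same tetramer-positive YFP+ cells from Thpok fl/fl mice at day 7, and from both genotypes at day 30. The labels do not say how many mice went into a library, so no p-value here speaks of the spread among mice. The p-values compare UMI sums over the cells of a class. Their estimate of spread is shared across genes and rests on 1 to 4 residual degrees of freedom. A very small p-value is thus no measure of agreement among many libraries.

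The Ccr7+ cells held 992131 UMIs in replicate 1 and 450077 in replicate 2, with a median of 3912 and 4757 UMIs per cell. Replicate 1 came from 3 capture wells, and its well 3 stood apart in 6 of 1853 genes by more than 2-fold, among them Klf2 (181 CPM over all cells of the well against 656 and 878 in wells 1 and 2). CPM are the UMIs of a gene scaled to a total of 1000000 UMIs. The wild type GP66+ library was low for Klf2 as well, at 33.6. What sets these captures apart was not tested, and results on Klf2 are given with that in view. The total libraries shared 24 cell barcodes.

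The label of these cells held in part. Among the genes said to mark them, Ccr7 was used by the rule and says nothing. Tcf7 was detected in 180 of 238 cells (75.6%) in replicate 1 and 79 of 93 (84.9%) in replicate 2. It was detected in 66.4% and 72.4% of the cells that passed the same gate without Ccr7. In cells with Cxcr5 and none of Ccr7, Cxcr6 and Foxp3 it was detected in 85.7% and 91.3%, so its detection was not particular to the Ccr7+ cells. Il7r, the receptor chain for interleukin 7, was detected in 65 cells (27.3%) and 11 cells (11.8%), against 25.2% and 11.8% of the cells that passed the same gate without Ccr7. At a fixed depth of 1500 UMIs per cell those Il7r shares were 17.8% and 6.5% in the Ccr7+ cells and 18.4% and 6.2% in the Ccr7-negative cells. Il7r thus did not set the Ccr7+ cells apart from their nearest neighbours. T cell genes were at the level of the other CD4-like cells, with a summed 4949 and 5055 CPM over 7 genes in the Ccr7+ cells and 4946 and 4973 in the rest.

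Markers of other cells were present at low levels. Of the Ccr7+ cells, 16 of 238 in replicate 1 and 4 of 93 in replicate 2 held a UMI of 8 B cell, myeloid or dendritic genes. Of the cells that passed the same gate without Ccr7, 24 of 527 and 3 of 170 did, a smaller share in each library. Lyz2 was detected in 4.20% and 2.15% of the Ccr7+ cells against 1.90% and 0.588%, and Cd79a in 1.68% and 0% against 0.190% and 0.588%. Of 10 dendritic cell genes, 5 were at 0 in replicate 1 and 8 in replicate 2, with Flt3, Siglech, Zbtb46, Cd209a and Ccl22 at 0 in both. The same 5 genes were at 0 in the Ccr7-negative cells of the gate in replicate 1, so these zeros do not set the Ccr7+ cells apart. The summed level of the dendritic list was 132 and 17.8 CPM, against 183 and 17.2 in the other CD4-like cells. The B cell list summed to 178 and 51.1 against 254 and 20.6, the myeloid list to 127 and 142 against 222 and 155, and a list of genes typical of CD8 cells to 108 and 99.98 against 166 and 140. The erythroid and platelet list summed to 54.4 and 6.7 against 273 and 10.3. In the test against all other CD4-like cells described further on, 2 of 3 myeloid, 2 of 5 CD8 and 3 of 4 erythroid genes were lower in the Ccr7+ cells, and the part of such UMIs in the other results was not tested. Without the cells that held B, myeloid or dendritic UMIs 471 genes were called in place of 535.

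The share of CD4-like cells that fell in the gate was 15.95% in replicate 1 (exact 95% binomial interval 14.1 to 17.9) and 16.5% in replicate 2 (13.5 to 19.8), intervals that cover counting error only. The share is a share of cells with a UMI and moves with depth and with the number asked for. With 2 or more Ccr7 UMIs it was 6.97% and 8.35%, and with each cell reduced to 1500 UMIs before gating it was 11.2% and 14.2%. Counting every cell with a Ccr7 UMI, whatever its other receptors, gave 26.0% of CD4-like cells (median 4144 UMIs) and 7.14% of CD8-like cells (median 4182) in replicate 1. In replicate 2 these were 27.5% (median 5094) and 8.56% (median 5252). Ccr7 stood at 94.7 and 69.8 CPM in the droplets without a cell. The same gate took 17.0% of CD4-like cells in the wild type GP66+ library, 17.6% in the Thpok-sufficient one and 3.46% (14 of 405; interval 1.90 to 5.73) in the day 7 library from Thpok fl/fl mice. At day 30 it took 17.5% (37 of 212; interval 12.6 to 23.2) of Thpok-sufficient and 10.2% (18 of 177; interval 6.14 to 15.6) of Thpok fl/fl cells. The order at day 30 turned with each cell reduced to 1500 UMIs before gating. The shares were then 10.6% (14 of 132) of Thpok-sufficient and 13.5% (15 of 111) of Thpok fl/fl cells. With 1 library for each of these groups no test was made.

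Against all other CD4-like cells, the Ccr7+ cells had more of the homing and quiescence genes Klf2 and S1pr1 and of the survival gene Bcl2. They had much less of the cytotoxic and Th1 genes Gzmb and Ccl5, less of the follicular helper gene Pdcd1 and less of nearly every cell division gene examined. Of 8403 genes tested with the library as a block, 256 were higher (3.05% of those tested) and 279 lower (3.32%), 6.37% in all, at an adjusted p of 0.05 from edgeR. The other cells contain the Cxcr5+ and Cxcr6+ cells that the gate leaves out, so the contrast is partly one against helper and effector cells by construction. Levels below are CPM over all cells of a class, fold changes are log2 with their standard error, and n is 2 libraries in each arm. Genes named for the largest changes had to have arms that do not overlap, so their lack of overlap is fixed by that choice.

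Bcl2 encodes a protein that blocks the mitochondrial route to cell death (chromosome 1, 106538178 to 106714274, minus strand, GRCm38). It stood at 341 and 378 in the Ccr7+ cells of replicates 1 and 2 and at 161 and 213 in the other cells, a log2 change of 1.02 ± 0.10 (adjusted p = 8.56e-11). Bbc3, which encodes the death promoter PUMA, was also higher, at 40.3 and 31.1 against 21.2 and 11.5 (1.09 ± 0.24, adjusted p = 0.00203). Bcl2a1b, a member of the A1 family induced by activation, was lower, at 115 and 82.2 against 233 and 213 (−1.08 ± 0.13, adjusted p = 2.39e-08). Its near copy Bcl2a1d fell by 0.74 ± 0.14, and reads of the A1 genes may be split between copies. Of 15 survival regulators 3 were higher and 3 lower, with a median of −0.048 beside 0.0069 over all genes.

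The homing and egress genes stood higher where they moved. Klf2, the transcription factor that drives S1pr1, was at 590 and 1560 in the Ccr7+ cells and 357 and 989 in the others (0.73 ± 0.06, adjusted p = 1.48e-12). Both Ccr7+ values were above the other cells of their own library, while the libraries differed from each other by more than the cell classes did. Within the wells of replicate 1 Klf2 was 913 against 544, 1067 against 654, and 205 against 124, higher in the Ccr7+ cells in each. Klf2 in the droplets without a cell was at 305 and 1347 CPM, above the other cells in replicate 2. The part of such UMIs in the difference was not tested. Klf3, a related factor, was at 224 and 224 against 136 and 137 (0.76 ± 0.11, adjusted p = 2.15e-06).

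S1pr1 was at 173 and 240 against 131 and 146 (0.57 ± 0.11, adjusted p = 0.000518). In the droplets without a cell S1pr1 was at 107 and 121 CPM. Cd69, an early activation marker whose product holds S1PR1 inside the cell, was also higher, at 91.7 and 122 against 53.8 and 72.3 (0.81 ± 0.15, adjusted p = 0.000215). In all, 6 of 15 genes of homing and egress were higher and none was lower, with a median log2 change of 0.25. Against the Cxcr6+ cells alone, described further on, 3 of the 15 were lower.

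Of 28 tested genes that carry signals from CCR7, 2 were higher and 3 lower, with a median of −0.0053. Dock2, the exchange factor that turns on Rac in moving lymphocytes, was at 233 and 289 against 179 and 206 (0.47 ± 0.10). Rgs16 and Rgs1, which shorten G protein signals from chemokine receptors, were lower by 2.39 ± 0.49 and 1.29 ± 0.36 on the log2 scale. Rgs16 rested on 5 UMIs in the Ccr7+ cells.

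Genes of naive and memory T cells, transcription factors such as Tcf7 and other products such as Dapl1, were higher wherever they passed. Of 18 tested genes 11 were higher and none lower, with a median of 0.45. Tcf7 (chromosome 11, 52252371 to 52283014, minus strand) was at 517 and 627 against 365 and 396 (0.62 ± 0.07, adjusted p = 5.22e-08). Its partner Lef1 was at 265 and 251 against 168 and 166 (0.68 ± 0.10, adjusted p = 5.82e-06). Bach2, a repressor of effector genes, was higher by 1.46 ± 0.40 from a low level of 18.1 and 15.6, and Satb1, a chromatin organizer, by 0.60 ± 0.12. Dapl1, known from naive and memory T cells, was at 66.5 and 22.2 against 21.5 and 3.82 (1.77 ± 0.23, adjusted p = 2.26e-07).

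Il7r was at 128 and 42.2 in the Ccr7+ cells and 85.2 and 27.9 in the others (0.64 ± 0.15, adjusted p = 0.00455). Its level differed more between the libraries than between the arms. The droplets without a cell held Il7r at 86.9 and 49.4 CPM, above the Ccr7+ cells in replicate 2. The call was lost with DESeq2 (adjusted p = 0.483), with 2 or more Ccr7 UMIs (0.857), with gating after reduction to 1500 UMIs (0.918) and without replicate 1 (0.581). Il6ra, the receptor chain for interleukin 6, was at 111 and 73.3 against 59.6 and 36.0 (0.98 ± 0.16). Of 15 cytokine receptor genes 2 were higher and 2 lower, the latter being Il2rb (−0.72 ± 0.16) and Ifngr1 (−0.54 ± 0.14), which encode chains of the interleukin 2 and interferon gamma receptors.

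The other genes with the largest increases serve varied functions. Pik3ip1, which encodes an inhibitor of PI3 kinase, stood at 92.7 and 68.9 against 47.8 and 21.8 (1.18 ± 0.18). Tsc22d3, which encodes the glucocorticoid-induced protein GILZ, stood at 213 and 133 against 99.7 and 82.2 (1.02 ± 0.12). Fasn, the fatty acid synthase, stood at 41.3 and 60.0 against 18.6 and 30.2 (1.13 ± 0.22), and Actn1, an actin crosslinker, at 196 and 156 against 91.2 and 84.1 (1.08 ± 0.12). Tcp11l2, Tagap, Crlf3, Pdlim1 and Znrf1 rose by 0.81 to 1.08 on the log2 scale.

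**Figure D1:**
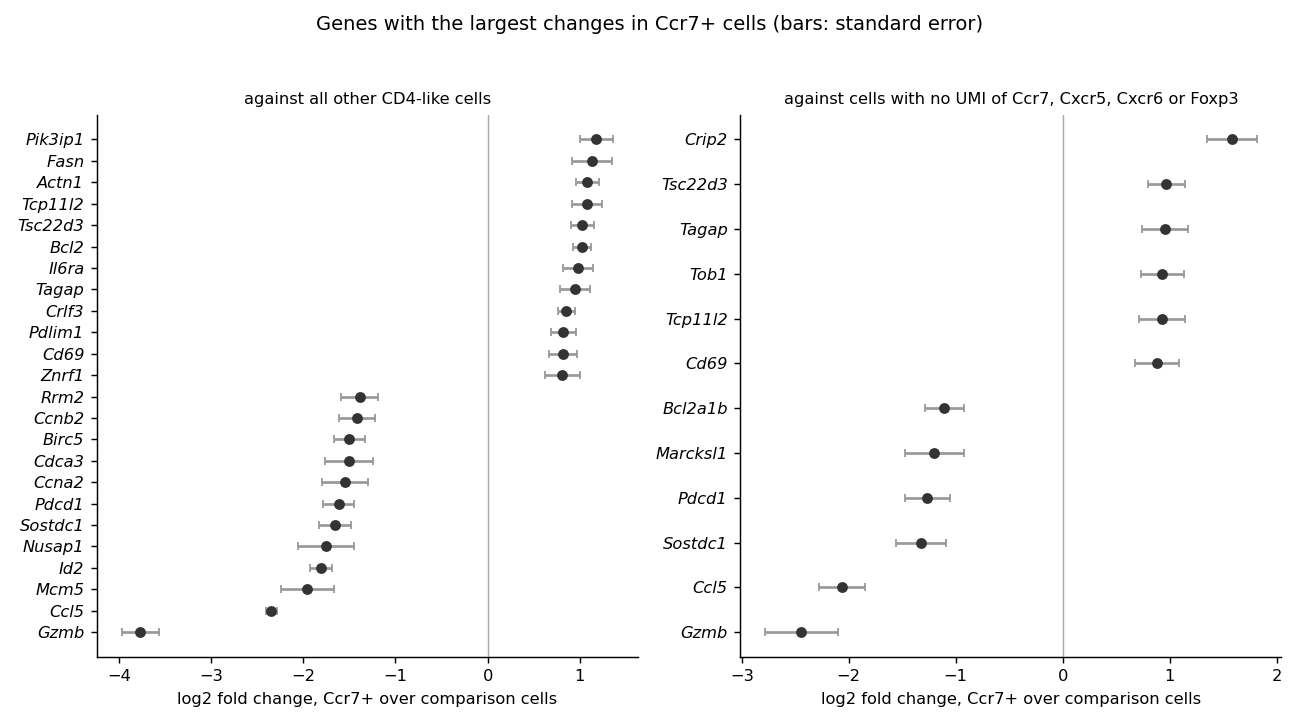
Log2 fold changes (x axis) of the genes with the largest changes in Ccr7+ cells, against all other CD4-like cells (left) and against cells with no UMI of Ccr7, Cxcr5, Cxcr6 or Foxp3 (right). Points are edgeR estimates over 2 libraries and bars are standard errors. Gzmb and Ccl5 lie furthest to the left in both panels, at −3.77 and −2.35 on the left and −2.44 and −2.06 on the right.

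Th1 and effector genes were lower. Of 23 tested, none was higher and 16 were lower, with a median of −1.21. Gzmb, a granule protease of cytotoxic cells (chromosome 14, 56258838 to 56262260, minus strand), stood at 16.1 and 17.8 in the Ccr7+ cells and at 145 and 431 in the others (−3.77 ± 0.20, adjusted p = 2.68e-18). The droplets without a cell held Gzmb at 813 and 1394 CPM, above both arms. The part of such UMIs in the difference was not tested. Ccl5, an inflammatory chemokine, stood at 526 and 313 against 2591 and 1899 (−2.35 ± 0.06, adjusted p = 1.34e-30).

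Id2, a factor that favours effector cells, was at 166 and 82.2 against 483 and 515 (−1.80 ± 0.12). Ifng was at 9.07 and 8.89 against 24.0 and 70.7 (−2.05 ± 0.34). Ly6c2, a surface marker of Th1 cells, was at 92.7 and 289 against 229 and 519 (−1.01 ± 0.11), and its arms overlapped between libraries. Ccr2, a receptor for inflammatory chemokines, was nearly missing: the Ccr7+ cells held 2 Ccr2 UMIs against 401 in the other cells. Tbx21, the Th1 master factor, was at 26.2 and 35.5 against 35.9 and 45.5 and did not pass (−0.37 ± 0.24, adjusted p = 0.472).

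Gzma fell by 1.21 ± 0.19 but has to be read with care. It was at 46.4 and 37.8 in the Ccr7+ cells against 133 and 47.8, and the droplets without a cell held 2982 and 1747. With the gate applied after reduction to 1500 UMIs the log2 difference was 0.77, with the opposite sign and past the threshold (adjusted p = 0.0251).

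Follicular helper genes were lower more often than higher, 10 against 1 of 19, with a median of −0.45. Pdcd1, which encodes PD-1, was at 39.3 and 102 against 186 and 198 (−1.62 ± 0.17, adjusted p = 1.59e-09). Sostdc1, a secreted antagonist of BMP and Wnt signals, was at 37.3 and 57.8 against 151 and 128 (−1.66 ± 0.17). Maf, Icos, Batf and Tox fell by 0.71, 0.44, 0.54 and 0.45. Slamf6, an adhesion receptor that helper and memory precursors share, was the exception, at 739 and 629 against 485 and 474 (0.58 ± 0.07). Izumo1r, which encodes folate receptor 4, was at 300.4 and 180.0 against 356 and 197 and did not pass (adjusted p = 0.419).

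Cell division genes were low throughout. Of 20 tested, 16 were lower and none higher, with a median of −1.22. Birc5, which encodes survivin, stood at 50.4 and 37.8 against 140 and 126 (−1.50 ± 0.17, adjusted p = 6.06e-09). Mki67, the proliferation antigen Ki-67, stood at 25.2 and 15.6 against 64.1 and 41.3 (−1.31 ± 0.24), and Cdk1, the mitotic kinase, at 12.1 and 6.67 against 49.9 and 29.8 (−2.01 ± 0.31). Mcm5, part of the replicative helicase, and Nusap1, a spindle protein, fell by 1.95 ± 0.29 and 1.75 ± 0.31. Of 16 glycolysis genes 6 were lower and none higher, by at most 0.59 for Tpi1. Of 80 ribosomal protein genes 53 were higher and 1 lower, with a small median of 0.16.

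These counts depended on the fit. DESeq2 called 92 genes in place of 535, gating after reduction to 1500 UMIs called 164, 2 or more Ccr7 UMIs called 307, and 204 were called without replicate 1 and 465 without replicate 2, where the spread was taken from the GP66+ libraries as well. Without the block no gene passed, with 271 higher and 360 lower at an unadjusted p under 0.05.

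The closest comparison was with the CD4-like cells that held no UMI of Ccr7, Cxcr5, Cxcr6 or Foxp3, 527 in replicate 1 and 170 in replicate 2. Here the contrast rests on the detection of Ccr7 alone, and fewer genes were called. A cell with Ccr7 mRNA but no captured Ccr7 UMI falls in the comparison class, and the share of such cells was not tested. The changes of Bcl2, Gzmb, Ccl5 and Tcf7 were smaller than against all other cells, while those of Cd69 and Bcl2a1b were not. The 2 counts come from unlike fits. The biological coefficient of variation was 0.086 here and 0.035 in the first comparison, and the comparison class was smaller. How far this lowered the count was not tested. Bcl2, Klf2, Klf3, Cd69 and Tsc22d3 were again higher and Gzmb, Ccl5, Id2 and Pdcd1 again lower, while Tcf7, Lef1, S1pr1 and Il7r did not pass. Of 7464 genes 23 were higher (0.308%) and 24 lower (0.322%), 0.63% in all. The Ccr7+ cells were slightly deeper, with median UMIs of 3912 and 4757 against 3631 and 4568.

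Crip2, a LIM domain protein, had the largest increase among genes with at least 50 CPM and arms that did not overlap, at 62.5 and 162 against 28.0 and 40.0 (1.58 ± 0.23, adjusted p = 3.35e-07). Tsc22d3 was at 213 and 133 against 113 and 68.7 (0.97 ± 0.17), and Cd69 at 91.7 and 122 against 51.8 and 67.5 (0.88 ± 0.21). Bcl2 was at 341 and 378 against 207 and 272 (0.66 ± 0.15, adjusted p = 0.00892), and the arms did not overlap. Klf2 was at 590 and 1560 against 394 and 976 (0.67 ± 0.16, adjusted p = 0.0135). Actn1, Rora, Klf6, Adgre5, Tob1, Tagap and Tcp11l2 rose by 0.71 to 0.96 on the log2 scale. The erythroid genes Hba-a1 and Hbb-bt were also called higher (3.05 ± 0.68 and 2.65 ± 0.70), from levels of 20.2 and 14.1 CPM in the Ccr7+ cells of replicate 1 and 0 and 2.22 in those of replicate 2.

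Among the lower genes, Ccl5 was at 526 and 313 against 2609 and 1128 (−2.06 ± 0.21, adjusted p = 3.06e-14). Gzmb was at 16.1 and 17.8 against 75.7 and 130 (−2.44 ± 0.34, adjusted p = 6.14e-08). Pdcd1 was at 39.3 and 102 against 128 and 191 (−1.26 ± 0.21), Id2 at 166 and 82.2 against 290 and 261 (−1.02 ± 0.19), and Bcl2a1b at 115 and 82.2 against 220 and 241 (−1.11 ± 0.18). Sostdc1, Marcksl1, Tnfrsf4 (OX40) and the division genes Birc5, Stmn1, Cdk1, Ccnb1 and Mcm5 also fell. By list, 6 of 24 effector genes, 5 of 20 division genes and 3 of 20 follicular helper genes were lower and none was higher.

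The genes that did not pass had small differences of the same sign in most cases. Tcf7 was at 517 and 627 against 383 and 502 (0.42 ± 0.15, adjusted p = 0.338), Lef1 at 265 and 251 against 197 and 184 (0.48 ± 0.16, adjusted p = 0.184) and S1pr1 at 173 and 240 against 152 and 159 (0.40 ± 0.17, adjusted p = 0.519). Il7r was at 128 and 42.2 against 133 and 45.0 (−0.01 ± 0.20, adjusted p = 0.999). Ly6c2, at 92.7 and 289 against 172 and 301, did not pass either (adjusted p = 0.581).

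The count depended on the fit: DESeq2 called 2 genes, the fit without the small Foxp3+ class (39 and 7 cells) called 17 and gating after reduction to 1500 UMIs called 105, and Bcl2 and Cd69 were lost without the Foxp3+ class (adjusted p = 0.229 and 0.101). Gzma, called here at −1.59 ± 0.24, rested on replicate 1 and had the opposite sign, 1.30, with gating after reduction.

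**Figure D2:**
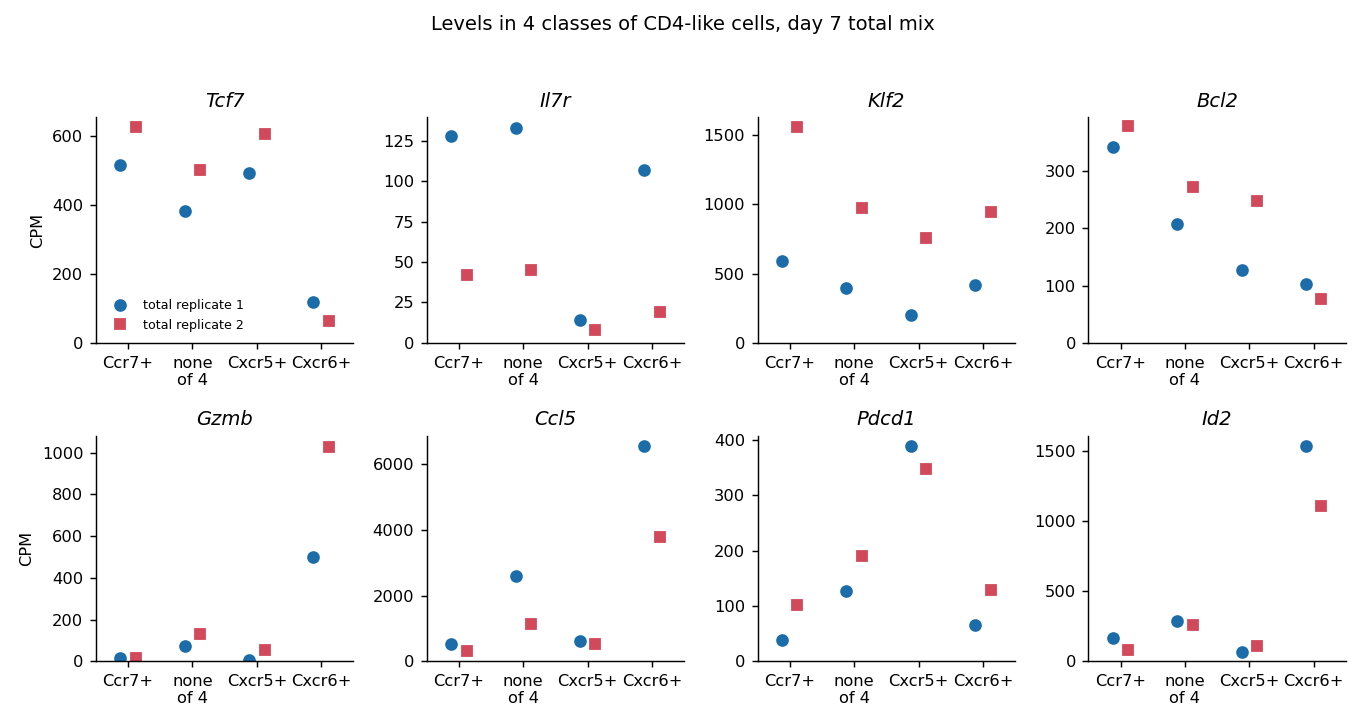
Levels (y axis, CPM of the class) of 8 genes in the Ccr7+ cells, the cells with none of Ccr7, Cxcr5, Cxcr6 and Foxp3, the Cxcr5+ cells and the Cxcr6+ cells, with 1 point for each total library. Bcl2 is highest in the Ccr7+ cells in both libraries (341 and 378), Tcf7 is as high there as in the Cxcr5+ cells, and Gzmb and Id2 are highest in the Cxcr6+ cells.

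Cxcr5+ cells (244 and 92 cells with Cxcr5 and none of the other 3 genes) differed from the Ccr7+ cells in homing genes, cytokine receptors and follicular helper genes, but not measurably in Tcf7. Of 7464 genes 146 were higher in Ccr7+ cells (1.96%) and 142 lower (1.90%), 3.86% in all. Il7r stood at 128 and 42.2 in the Ccr7+ cells and 14.3 and 7.85 in the Cxcr5+ cells, the largest increase among the genes with at least 50 CPM (3.08 ± 0.32, adjusted p = 1.68e-15). Tcf7 stood at 517 and 627 against 493 and 606 (0.08 ± 0.16, adjusted p = 0.903).

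Klf2 was higher by 1.30 ± 0.17, Klf3 by 1.54 ± 0.19 and S1pr1 by 0.82 ± 0.18. Selplg, the ligand of P-selectin, was at 426 and 493 against 189 and 296 and passed as well. In all 9 of 15 homing and egress genes were higher and none lower, with a median of 0.96. Tsc22d3 was at 213 and 133 against 35.3 and 45.1 (2.31 ± 0.22). Rasgrp2, the activator of the integrin switch Rap1, was at 213 and 229 against 86.3 and 120 (1.19 ± 0.19). Bcl2 was at 341 and 378 against 127 and 247 (1.09 ± 0.17). Emp1, Pik3ip1, Arl4c and Crip2 rose by 1.79 to 2.13.

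Of 24 Th1 and effector genes 3 were higher in the Ccr7+ cells and none lower, with a median of 0.31. Of 20 follicular helper genes 14 were lower and none higher. Pdcd1 was at 39.3 and 102 against 390 and 347 (−2.60 ± 0.20, adjusted p = 4.54e-25), and Sostdc1 at 37.3 and 57.8 against 366 and 338 (−2.98 ± 0.21). Padi4, an enzyme that citrullinates proteins, rested on 8 UMIs in the Ccr7+ cells against 123 (12.04-fold, exact interval 5.92 to 28.5 for counting error). Il21, the helper cytokine, had 6 UMIs against 75 (9.79-fold, 4.29 to 27.5). Cd160, Angptl2, Mafg, Tox2, Maf and Rgs10 also fell. DESeq2 called 56 genes in place of 288 and 139 were called without well 3 of replicate 1, with the named genes of both directions keeping their sign.

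Markers of other cells differed here too. Of the dendritic genes 2 of 3 were higher in the Ccr7+ cells (median 1.56), and the list summed to 51.1 and 9.81 CPM in the Cxcr5+ cells against 132 and 17.8. Of the B cell genes 1 of 2, Cd74, was higher, and of those typical of CD8 cells 1 of 5. All 3 erythroid genes tested were lower (median −4.05), where the list summed to 1212 CPM in the Cxcr5+ cells of replicate 1 and 5.89 in those of replicate 2. Of 20 division genes 9 were lower (median −0.85). The part of such UMIs in this comparison was not tested.

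Cxcr6+ cells (249 and 133) stood furthest from the Ccr7+ cells. There 463 genes were higher in Ccr7+ cells (6.20%) and 584 lower (7.82%), 14.0% in all, and DESeq2 called 486 in all. Tcf7 was at 517 and 627 in the Ccr7+ cells and 120 and 62.2 in the Cxcr6+ cells (2.62 ± 0.18, adjusted p = 3.65e-29). Id3, which opposes effector fates, was at 308 and 307 against 44.0 and 22.6 (3.20 ± 0.21), Il6ra at 111 and 73.3 against 15.2 and 4.52 (3.19 ± 0.30) and Bcl2 at 341 and 378 against 102 and 76.9 (2.02 ± 0.18). Izumo1r, Nsg2 and Fam101b rose by 2.24 to 3.05.

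Il7r, at 128 and 42.2 against 107 and 19.2, did not pass (0.49 ± 0.22, adjusted p = 0.135). Of 15 homing and egress genes 6 were higher and 3 lower, with a median of 0.47. That list summed to 2976 and 4266 CPM in the Ccr7+ cells and to 3321 and 4034 in the Cxcr6+ cells. Its summed level thus did not set these 2 classes apart in the same direction in both libraries. Of 20 follicular helper genes 10 were higher in the Ccr7+ cells and 1 lower, with a median of 0.93. Of 24 effector genes 23 were lower and none higher, with a median of −2.12 beside 0.017 over all genes, and all 20 division genes were lower. Gzmb was at 16.1 and 17.8 against 502 and 1029 (−5.25 ± 0.26), and Id2 at 166 and 82.2 against 1533 and 1110 (−3.27 ± 0.18). Ccr2 had 2 UMIs against 304 (99.6-fold, exact interval 27.3 to 826). Ccl4 had 5 UMIs against 727, and its level in Cxcr6+ cells was 12.2 in replicate 1 and 804 in replicate 2. Slamf7, Klrg1 and Lgals1 also fell. Of 5 genes typical of CD8 cells 4 were lower (median −1.64), and the list summed to 365 and 207 CPM in the Cxcr6+ cells against 108 and 99.98. Of the erythroid genes 1 of 3 was higher and of the myeloid genes 1 of 4 lower. The part of such UMIs was not tested.

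The Ccr7+ cells were not uniform. In replicate 1, 134 cells held 1 Ccr7 UMI, 54 held 2 and 50 held 3 or more, and in replicate 2 these numbers were 46, 22 and 25. Cd69 stood at 55.4, 60.6 and 202 CPM over these groups in replicate 1 and at 67.9, 111 and 222 in replicate 2. Klf2 stood at 502, 515 and 855, and at 1223, 2063 and 1748. Both genes were higher at 3 or more Ccr7 UMIs than at 1 in each library.

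Izumo1r went the other way, at 365, 286 and 173 in replicate 1 and 186, 223 and 138 in replicate 2. Il7r was lower at 3 or more UMIs as well, at 59.0 against 160 with 1 UMI in replicate 1 and at 30.7 against 54.3 in replicate 2. These 2 groups of replicate 2 held 130420 and 220797 UMIs over all genes, so their Il7r levels rest on few UMIs. At 3 or more UMIs both levels were below the 86.9 and 49.4 CPM of the droplets without a cell. Bcl2 was at 319, 277 and 451, and at 281, 556 and 406. Median UMIs per cell over these groups were 3743, 3873 and 4424.5 in replicate 1 and 4700, 4193 and 5031 in replicate 2, highest at 3 or more Ccr7 UMIs in each. These values are a description with no test.

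**Figure D3:**
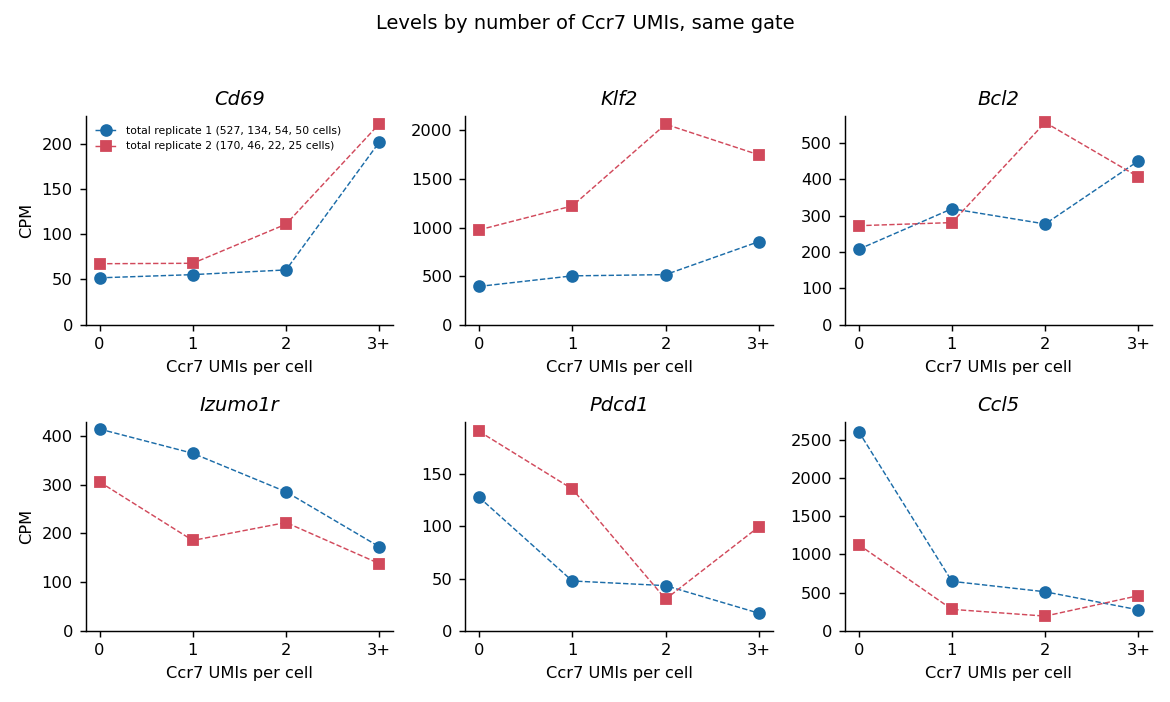
Levels (y axis, CPM) of 6 genes in cells of the same gate with 0, 1, 2 and 3 or more Ccr7 UMIs (x axis), for each total library, with cell numbers in the key. Cd69 reaches 202 and 222 at 3 or more UMIs, while Izumo1r falls to 173 and 138 and Ccl5 is highest at 0.

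Markers were shared loosely within cells. In replicate 1, 41 of the 238 Ccr7+ cells held both Tcf7 and Il7r UMIs, 139 held Tcf7 alone and 24 Il7r alone. In replicate 2 these numbers were 8, 71 and 3 of 93. Ly6c2 and Izumo1r, which lean to Th1 and to helper cells, were seen together in 13 cells, with Izumo1r alone in 91 and Ly6c2 alone in 29 of replicate 1. In replicate 2 both were seen in 6 cells, Izumo1r alone in 27 and Ly6c2 alone in 25. A UMI of Ly6c2 was found in 17.6% and 33.3% of the Ccr7+ cells. The droplets without a cell held Ly6c2 at 1454 and 1429 CPM, above the 92.7 and 289 of the Ccr7+ cells, so these shares are not read as expression.

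The same gate was then compared between the total mix (331 cells) and the tetramer-positive libraries (257 wild type and 233 Thpok-sufficient cells). Ccr7+ cells of the GP66+ libraries had more of 6 of 13 early-response genes that follow T cell receptor signals, and the other 7 did not pass. Of 7386 genes 2 were higher in the total mix (0.0271%) and 33 lower (0.447%), 0.474% in all. Nr4a1, an immediate-early nuclear receptor, was at 19.2 and 8.89 in the total mix and at 199.6 and 212 in the wild type and Thpok-sufficient GP66+ cells (−3.73 ± 0.31, adjusted p = 0.0131). Its relative Nr4a2 was at 2.02 and 2.22 against 125 and 88.3 (−5.60 ± 0.38, adjusted p = 0.0107).

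Tnfaip3, which encodes the NF-kB inhibitor A20, was at 7.06 and 11.1 against 169 and 191 (−4.40 ± 0.28). Dusp1, Rgs2 and Gadd45b fell by 3.70, 3.98 and 3.68, and Cd69 was at 91.7 and 122 against 405 and 450 (−2.04 ± 0.19, adjusted p = 0.0176). Ifng was at 9.07 and 8.89 against 97.4 and 103 (−3.46 ± 0.27). Among the 7 early-response genes that did not pass, Egr1 was at 23.2 and 46.7 against 25.3 and 46.1 (−0.14 ± 0.46, adjusted p = 0.935). Egr2, Myc and Dusp2 had differences of −0.49, −0.49 and −0.50 (adjusted p = 0.827, 0.663 and 0.902). The median over the 13 early-response genes was −2.33, so not all of those that did not pass had small differences.

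The difference was not restricted to Ccr7+ cells: in the other CD4-like cells Nr4a1 was at 9.71 and 18.4 in the total mix and 213 and 232 in the GP66+ libraries. Sort, tetramer staining and capture cannot be told apart from the cells themselves in this comparison. Il7r, at 128 and 42.2 against 6.61 and 9.22, did not pass (3.52 ± 0.59, adjusted p = 0.0875), nor did Pik3ip1 (2.03 ± 0.28, adjusted p = 0.0522), Ccnd2 (2.10 ± 0.32, adjusted p = 0.0722) or Cd74, the class II invariant chain (3.94 ± 0.59, adjusted p = 0.0698). Bcl2 was at 341 and 378 against 280 and 248 (0.42 ± 0.14, adjusted p = 0.352). The 2 genes called higher were Gzma and Tnfaip8l2. Gzma was at 46.4 and 37.8 against 3.61 and 5.38 (3.24 ± 0.39, adjusted p = 0.0313). Droplets without a cell held Gzma at 2982 and 1747 CPM in the total libraries and at 11.7 and 25.4 in the GP66+ ones. The part of such UMIs was not tested. Tnfaip8l2 passed narrowly, at 245 and 235 against 109 and 105 (1.15 ± 0.16, adjusted p = 0.0497). The count was 0 without either total library, 215 without the wild type and 595 without the Thpok-sufficient GP66+ library, and 411 with no filter on low counts.

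Within each library the Ccr7+ cells were last set against the other CD4-like cells, and that difference was compared between the total mix and GP66+ cells. The deficit of division genes in Ccr7+ cells was larger in the total mix. The gain in Bcl2 and the loss of Id2 and Bcl2a1b were larger there too. Of 9042 genes 30 had a more positive difference in the total mix (0.332%) and 83 a more negative one (0.918%), 1.25% in all, and 15 of 20 division genes were among the latter.

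Birc5 was at 50.4 against 140 and 37.8 against 126 in the total mix, at 216 against 184 in the wild type and 78.4 against 109 in the Thpok-sufficient GP66+ library. The log2 difference of differences was −1.53 ± 0.19 (adjusted p = 4.00e-12). Nusap1 was at 23.2 against 58.4 and 0 against 47.4 in the total mix, but at 84.8 against 70.9 and 44.5 against 43.9 in GP66+ cells (−1.95 ± 0.29). Ube2c, Cdca3, Ccnb1, Cdk1 and Mcm5 had differences of −1.51 to −2.21. The Ccr7+ cells of the wild type GP66+ library held as much of Birc5, Nusap1, Cdk1 and Ube2c as the other cells of that library or more.

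Bcl2 was at 280 against 247 and 248 against 216 in GP66+ cells, a smaller step than in the total mix (difference 0.81 ± 0.11, adjusted p = 6.33e-10). Bcl2a1b was at 385 against 408 and 313 against 418 (difference −0.87 ± 0.14), and Id2 at 99.2 against 198 and 140 against 262 (difference −0.87 ± 0.14). Klf2 and S1pr1 were higher in Ccr7+ cells of all 4 libraries, and their differences did not pass (0.11 ± 0.09 and 0.23 ± 0.14, adjusted p = 0.844 and 0.695). Tcf7 had a difference of 0.36 ± 0.09 (adjusted p = 0.00994).

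This count fell to 19 with DESeq2, 18 with gating after reduction to 1500 UMIs, 52 with 2 or more Ccr7 UMIs, 53 without well 3 of replicate 1, 50 without total replicate 1 and 34 without the wild type GP66+ library. Bcl2 was lost with gating after reduction (0.43, adjusted p = 0.683). The Tcf7 call was lost in 5 of these, for example without well 3 (adjusted p = 0.0996). Most genes named for this comparison lost their call in some fits. With gating after reduction 18 lost it, 5 were called or not as in the main fit and 1 gained a call. DESeq2 lost 18 and left 6 as in the main fit, and the fit without the block lost 22 and left 2.

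**Figure D4:**
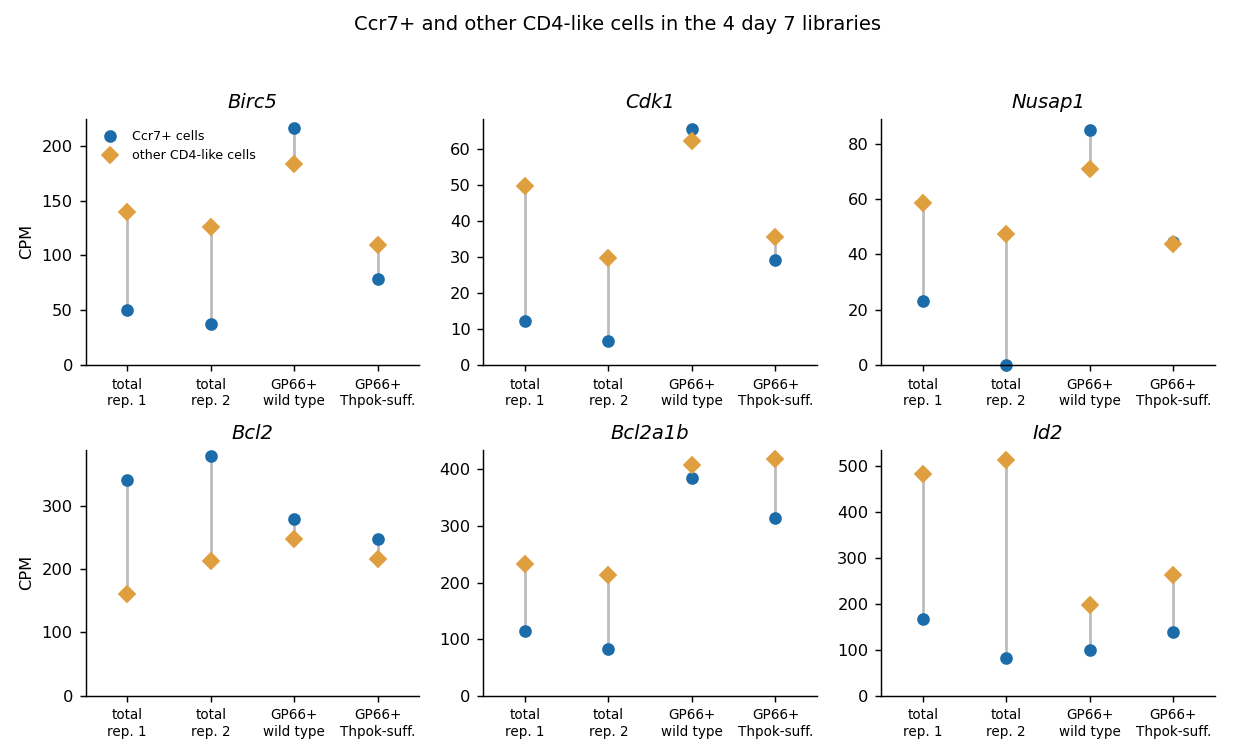
Levels (y axis, CPM) of 6 genes in Ccr7+ cells (circles) and other CD4-like cells (diamonds) of the 4 day 7 libraries on the x axis. Birc5, Cdk1 and Nusap1 are far lower in Ccr7+ cells of both total libraries, while in the wild type GP66+ library the Ccr7+ cells lie at or above the other cells.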

How the data were processed

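Single cells were measured with the 10x 3' v2 kit, per the labels' protocols. The deposited files hold raw UMI counts per gene and barcode, which come from the authors' run of Cell Ranger (mm10, after bcl2fastq 2.17) according to their notes on processing. No source here gives its version. Cells were barcodes with 500 or more of 27998 genes and at most 10% mitochondrial UMIs. No doublet caller was run; leaving out the 2% of cells with the most UMIs was an alternative. Total counts over cells were 33223809 and 12172319 UMIs in total replicates 1 and 2 and 1551772 to 14358928 in the other libraries.

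For each class of cells in a library the counts were added up, and these sums entered edgeR 4.0.16 (quasi-likelihood test, TMM, filterByExpr, Benjamini-Hochberg over all genes tested, threshold 0.05). The first comparison fitted 4 sums with the library as a block (1 residual degree of freedom). Those with Ccr7-negative, Cxcr5+ and Cxcr6+ cells shared a fit of 5 classes in 2 libraries (4). Total against GP66+ cells was 2 against 2 libraries without a block, and the difference between kinds was an interaction over 8 sums with a library block (2). The block pairs sums of the same library, so the pairing is one of shared animals and capture. Genes of the gate and mitochondrial genes stayed in the totals and were not tested. Standard errors are the log2 fold change divided by the root of the F statistic. Levels are CPM, UMIs scaled to a class total of 1000000, without TMM.

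The genes named were, among those past the threshold with at least 50 CPM in the higher arm and no overlap of the arms, the 12 (first comparison) or 6 (others) largest changes per direction; for the interaction the within-library sign had to be the same in both libraries of a kind. Where fewer than 5 passed, the next largest were added. Genes of 22 fixed lists and the ribosomal protein genes were added, of which some were picked after their values were seen. The cells and the lists were chosen with earlier results of these data known. Of 283 listed genes 276 are in the files. Alternatives were DESeq2 1.42.0, its size factors, no filter, no block, a UMI floor, 2 or more Ccr7 UMIs, gating after thinning each cell to 1500 UMIs, leaving out cells with B, myeloid or dendritic UMIs or single libraries, and, chosen after seeing the data, leaving out well 3 of replicate 1 or the Foxp3+ sums. The code was tested on simulated data. Coordinates are from GENCODE on GRCm38. Python 3.11.15 and R 4.3.3 were used. Results on some genes are not reported here.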

Additional observations from a re-analysis of the deposited data

Results flagged for a closer look

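The difference between Ccr7+ and other CD4-like cells was itself different in the total mix and in GP66+ cells for 113 genes by the interaction test in edgeR. The named genes with a more positive difference in the total mix were Hilpda (1.17 on the log2 scale), Emp1 (0.98), Bcl2 (0.81), Ccnd2 (0.71), Tagap (0.60) and Tsc22d3 (0.58). Those with a more negative one were Ccl4 (−3.30), Ccnb1 (−2.21), Nusap1 (−1.95), Cdca3 (−1.65), Ube2c (−1.59) and Mcm5 (−1.51). Hilpda, a lipid droplet gene induced by low oxygen, was at 24.2 against 17.8 and 22.2 against 20.3 CPM in Ccr7+ and other cells of the total mix, and at 73.3 against 135 and 56.1 against 90.0 in the GP66+ libraries. The Ccl4 value was carried by the other cells of total replicate 2 (315 CPM against 4.69 in replicate 1) and was 0.38 without that library.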

How the results depend on the processing

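The size of the lists depended on the fit. For Ccr7+ against all other cells 535 genes were called, and the counts were 92 with DESeq2, 307 with 2 or more Ccr7 UMIs, 164 with gating after thinning and 204 to 465 when a total library was left out. For Ccr7-negative cells of the gate the 47 calls became 2 with DESeq2, 105 with gating after thinning and 17 without the Foxp3+ sums. For Cxcr5+ cells the 288 became 56 with DESeq2 and 139 without well 3, and for Cxcr6+ cells the 1047 became 486 with DESeq2 and 689 with 2 or more Ccr7 UMIs. Without the replicate block these 4 counts were 0, 0, 9 and 374, and that of the interaction 0; the pairing is by library. For the total mix against GP66+ cells the 35 became 411 with no filter, 63 with DESeq2, 10 with gating after thinning, 21 without well 3, and 0 to 595 when single libraries were left out. The 113 of the interaction became 19 with DESeq2, 52 with 2 or more Ccr7 UMIs, 18 with gating after thinning, 53 without well 3, and 34 to 102 when single libraries were left out. The share in the gate was 6.97% and 8.35% with 2 or more Ccr7 UMIs and 11.2% in replicate 1 with gating after thinning.

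Among the named genes the sign turned for Gzma with gating after thinning (0.77 against all other cells and 1.30 against Ccr7-negative cells) and without total replicate 1 (0.27 against Ccr7-negative cells, and −2.10 without replicate 2). Against Ccr7-negative cells it turned for Id3 with 2 or more Ccr7 UMIs (−0.14) and without total replicate 2 (−0.054, and 0.29 without replicate 1), and for Il7r without the replicate block (0.0080), with the UMI floor (0.011), with gating after thinning (0.0081) and without well 3 (0.052), with −0.089 without total replicate 1. It turned for Klf2 between total and GP66+ cells without the wild type GP66+ library (−0.090, and 4.65 without the Thpok-sufficient one), and for Ccl4 in the interaction without total replicate 2 (0.38, and −4.02 without replicate 1). Leaving out a library in the 5-class comparisons was done for values only, with no test. The cause of these changes was not tested. With 2 libraries per arm and 93 Ccr7+ cells in the smaller one, genes with few UMIs such as Il21 are held with little precision, and a gene that did not pass is not shown to be alike.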
